A study of Homo sapiens with 12 samples.

Results

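The proteasome genes described here are the 48 genes of a table of 13074 whose symbols begin with PSM, a letter from A to G and a number. Of these, 46 encode proteasome subunits or regulators of the particle, and PSMC3IP and PSME3IP1, named as interacting partners of PSMC3 and PSME3 and not themselves subunits, are given apart. The 46 comprise 7 alpha-ring genes (PSMA1 to PSMA7), 7 constitutive beta-ring genes (PSMB1 to PSMB7), 3 immune beta-ring genes (PSMB8 to PSMB10), 6 ATPase genes (PSMC1 to PSMC6), 14 non-ATPase genes (PSMD1 to PSMD14) and 9 regulators (PSME1 to PSME4, PSMF1 and PSMG1 to PSMG4). PSMA8 and PSMB11, tissue-restricted forms of ring subunits, were not analysed here. All 48 passed the filter on low counts that left 10467 genes for testing, so no member was lost to it.

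The proteasome is the protease that degrades proteins tagged with ubiquitin. Its core particle stacks outer alpha rings, which form the gate, on inner beta rings, where PSMB5, PSMB6 and PSMB7 carry the active sites. Interferon exchanges these for PSMB8, PSMB9 and PSMB10, the immunoproteasome subunits, whose peptides feed antigen presentation. A regulatory particle caps the core: its base holds a ring of PSMC ATPases that unfold substrates and thread them into the core, and its lid holds the deubiquitinase PSMD14. Cells under proteasome stress raise most of these genes together through the transcription factor NFE2L1, which acts at antioxidant response elements in their promoters.

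The measured quantity was ribosome footprints, short pieces of mRNA covered by a translating ribosome, with 12 libraries of A375, an established human melanoma cell line. Control (WT) cells and FTSJ1 knockout cells, both A375, were each kept without added selenium or with 30 nM sodium selenite, which gives 4 groups of 3 libraries. FTSJ1 is a methyltransferase that modifies the ribose of anticodon-loop nucleotides in tRNA, and the study was designed to look at translation of selenoproteins when a selenocysteine tRNA modification is lost. The column names give 1 knockout line, ko1, so effects of the missing FTSJ1 cannot be told apart from whatever else sets that line apart. With footprints alone, more transcript and more ribosomes per transcript cannot be told apart either.

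FTSJ1 footprints followed the labels, with a mean of 50.5 CPM (counts scaled to a common effective library size) in control and 2.59 in knockout cells without selenite, and 61.0 and 5.31 with selenite. Library totals ran from 951567 to 1543627 counts in 10 libraries, but were 636920 and 520989 in replicates 2 and 3 of the knockout with selenite. These 2 shallow libraries stand apart in depth, and results of the fits that use them are given with and without them. Without them a single library stands for its group and is assumed to vary like the others. The melanoma or melanocyte markers, of which 5 of 8 are in the table, summed to 808 to 858 CPM in control and 382 to 453 CPM in knockout cells without selenite, and to 801 to 916 and 549 to 683 CPM with selenite. Of the leukocyte markers 1 of 5 is in the table (LYZ, 2.63 to 24.8 CPM over all libraries), of the epithelial ones KRT8 and KRT18 (208 to 401 CPM together) and of the fibroblast or endothelial ones COL1A1 (1.47 to 9.98 CPM). The summed melanoma or melanocyte markers thus move with the genotype, although 1 of the 4 tested did not pass with selenite (log2 fold change 0.06, adjusted p = 0.71). LYZ was also lower in the knockout, at 5.89 to 8.63 beside 20.7 to 24.8 CPM without selenite, and 2.63 to 11.5 beside 15.5 to 21.2 CPM with it. KRT8 and KRT18 together were lower in the knockout without selenite (208 to 283 beside 303 to 305 CPM) and higher with it (295 to 401 beside 250 to 281 CPM). The part of these markers in the proteasome values was not tested.

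Together the 46 genes took 1.11% to 1.27% of all footprints in a library. That share was 1.14% to 1.19% in control cells and 1.22% to 1.27% in knockout cells without selenite, groups that do not overlap, and 1.11% to 1.18% and 1.13% to 1.19% with selenite, groups that do. Means over the 12 libraries ran from 1224 CPM for PSMB4 and 601 CPM for PSMB1 to 18.3 CPM for PSMG3 and 15.5 CPM for PSMG4. Coding lengths were not used here, so these levels are not compared between genes.

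The promoters of 4 members whose results recur below are printed first: PSMB2, called higher in both knockout comparisons; PSMC4, called lower in both; PSMD12, whose response to selenite differed between the genotypes; and PSMB9, an immune subunit that starts beside the antigen transporter gene TAP1. They are RefSeq promoters on GRCh38.p14, from 250 bases before to 50 after the annotated start, read 5′ to 3′ on the gene's strand. Capitals mark matches, on either strand, to the antioxidant response element (TGACNNNGC) and to the CCAAT box (CCAAT), the element that NF-Y binds. The PSMB2 window is chr1:35641477-35641776 (minus strand), the PSMC4 window chr19:39970915-39971214 (plus), the PSMD12 window chr17:67366528-67366827 (minus) and the PSMB9 window chr6:32853942-32854241 (plus).
PSMB2: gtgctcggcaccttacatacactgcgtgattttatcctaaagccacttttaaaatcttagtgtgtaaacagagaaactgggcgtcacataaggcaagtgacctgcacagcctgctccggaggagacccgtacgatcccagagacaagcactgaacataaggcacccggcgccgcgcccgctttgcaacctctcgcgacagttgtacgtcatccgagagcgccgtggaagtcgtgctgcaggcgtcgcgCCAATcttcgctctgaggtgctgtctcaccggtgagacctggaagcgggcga
PSMC4: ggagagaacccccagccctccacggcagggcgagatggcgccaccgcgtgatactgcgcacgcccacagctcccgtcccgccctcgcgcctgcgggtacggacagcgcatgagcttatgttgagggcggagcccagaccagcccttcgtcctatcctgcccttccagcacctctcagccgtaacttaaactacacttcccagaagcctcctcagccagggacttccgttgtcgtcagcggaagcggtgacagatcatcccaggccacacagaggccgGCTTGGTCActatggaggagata
PSMD12: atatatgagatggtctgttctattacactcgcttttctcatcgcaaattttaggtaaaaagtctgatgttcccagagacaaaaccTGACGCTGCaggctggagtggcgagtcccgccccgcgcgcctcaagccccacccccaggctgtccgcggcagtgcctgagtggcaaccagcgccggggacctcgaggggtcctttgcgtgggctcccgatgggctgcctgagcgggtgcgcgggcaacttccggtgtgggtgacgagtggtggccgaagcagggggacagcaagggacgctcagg
PSMB9: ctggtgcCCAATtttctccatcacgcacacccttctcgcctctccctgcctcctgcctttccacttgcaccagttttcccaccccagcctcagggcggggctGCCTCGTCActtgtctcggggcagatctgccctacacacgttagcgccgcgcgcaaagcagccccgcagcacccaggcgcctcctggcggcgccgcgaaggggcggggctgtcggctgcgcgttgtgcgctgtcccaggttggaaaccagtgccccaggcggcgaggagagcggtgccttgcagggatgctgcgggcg

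PSMB2 holds 1 CCAAT match, PSMC4 and PSMD12 hold 1 antioxidant response element match each, and PSMB9 holds 1 of each. Of the 48 genes, 42 matched a listed promoter, and PSMA7, PSMB1, PSMB6, PSMB7, PSMD4 and PSMG3 did not. The antioxidant response element letters occurred in 13 of 42 first-listed promoters (31%), against 4687 of 35116 promoters of the same length in the table (13.3%). The CCAAT letters occurred in 20 of 42 (47.6%), against 12155 of 35116 (34.6%). The 35116 hold every listed promoter, also several of the same gene, while each of the 42 genes gives only its first, so the sets are unlike. These are letter matches and not binding sites. Among the printed promoters that hold the response element letters, PSMC4 was lower in both knockout comparisons, PSMD12 higher without selenite and PSMB9 higher with it. The PSMB9 call was lost without the 2 shallow libraries. These are only some of the 13 with a match, and the direction of change over the 13 was not compared here.

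The first comparison asks how footprints of the knockout differ from the control without selenite. Of the 46 genes, 9 were higher and 2 lower at an adjusted p under 0.05, where all adjusted p-values come from edgeR's quasi-likelihood test with Benjamini-Hochberg adjustment over the 10467 genes and n is 3 libraries a group. That is 23.9% of the members, beside 23.9% of all genes tested. The higher calls were 19.6% of members beside 11.8% of all genes, and the lower calls 4.35% beside 12%. The members' median log2 fold change was 0.18, with 32 of 46 above 0, while 5232 of the 10467 genes were above 0. The libraries are bulk lysates, in which fewer cells of a kind and fewer footprints per cell cannot be told apart, and nothing in the labels says whether replicates were separate cultures, so the p-values measure the spread between these libraries. PSMC3IP and PSME3IP1 were not called here or in any other comparison.

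**Figure D1:**
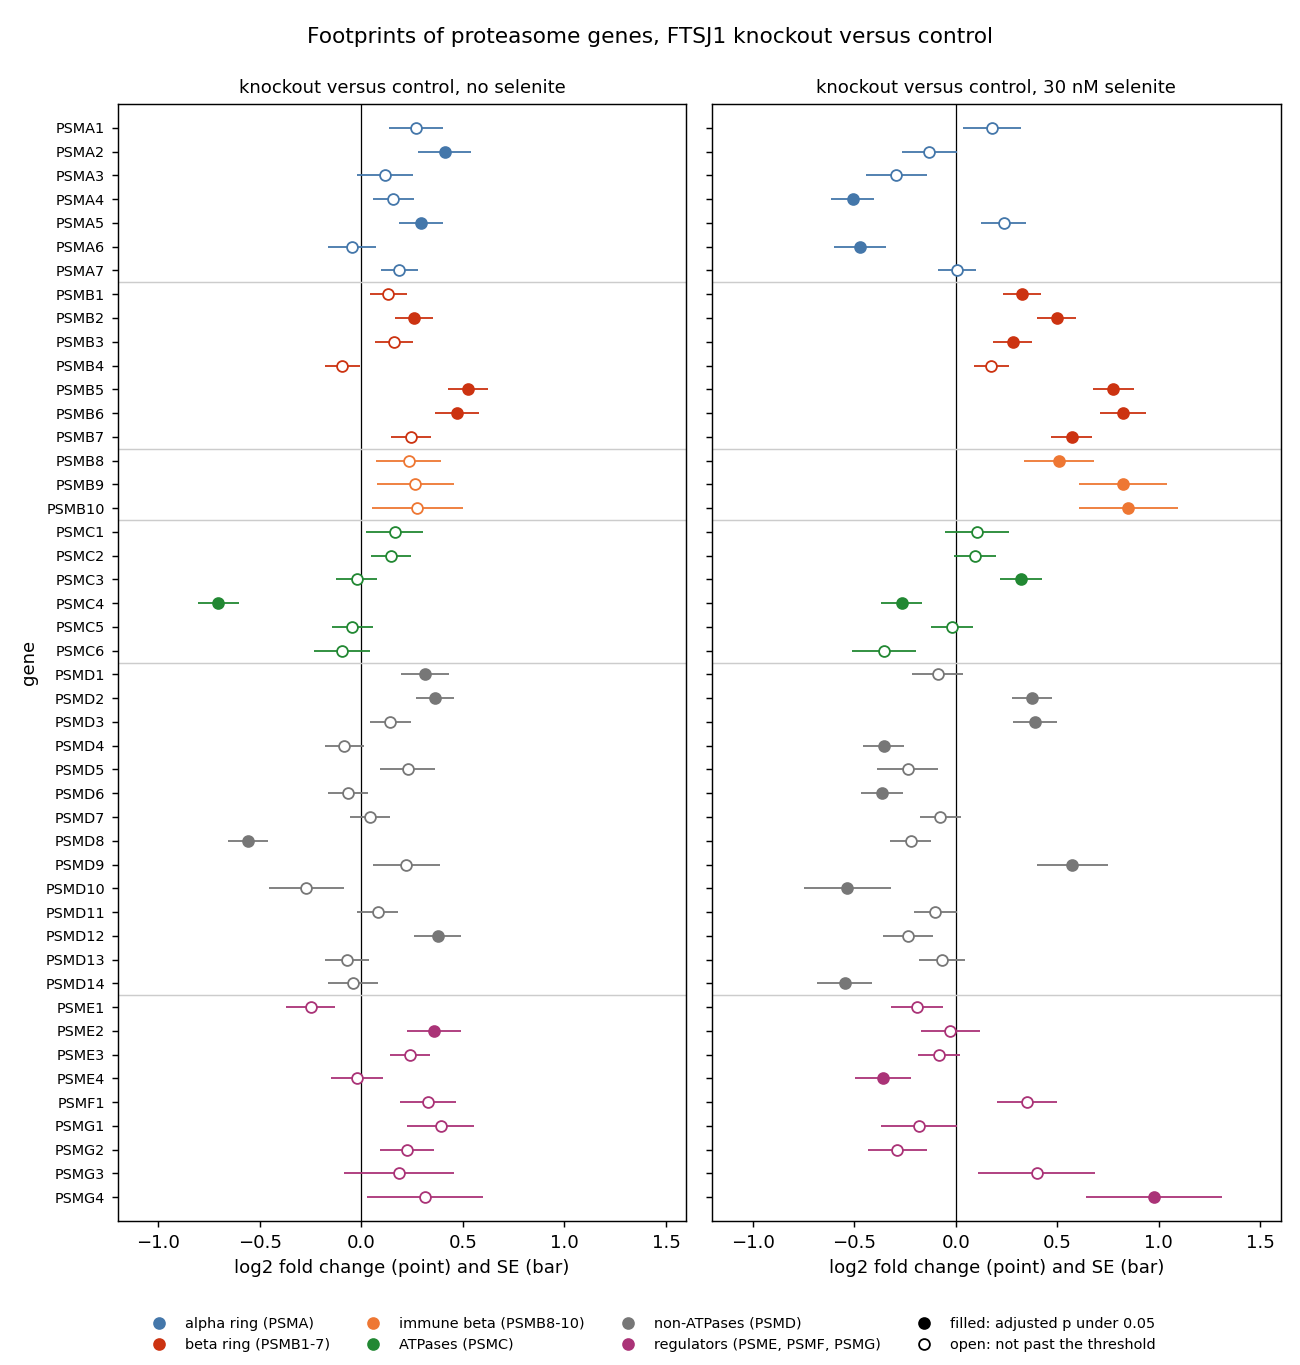
Log2 fold change (point) and standard error (bar) of footprints in FTSJ1 knockout over control cells for each of the 46 proteasome genes (vertical axis), without selenite on the left and with 30 nM selenite on the right; colour gives the class and filled points have an adjusted p under 0.05. Without selenite most points lie a little above 0, with PSMC4 and PSMD8 far below; with selenite all 10 beta-ring genes lie above 0 and the alpha-ring genes lie on both sides.

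Among the catalytic subunits, PSMB5, which carries the chymotrypsin-like site, was at 244, 274 and 246 CPM in the control libraries without selenite and at 363, 358 and 378 CPM in the knockout. Every knockout library was above every control library, by a log2 fold change of 0.52 ± 0.10 (SE; adjusted p = 8.2e-05). PSMB6, which carries the caspase-like site, was at 210, 224 and 190 CPM in the control and 268, 303 and 295 CPM in the knockout. These groups do not overlap either, and the log2 fold change was 0.47 ± 0.11 (adjusted p = 0.00107). PSMB7, which carries the trypsin-like site, stood at 449, 433 and 423 CPM against 510, 478 and 558 CPM. Its groups were also apart, but its log2 fold change of 0.25 ± 0.10 did not pass (adjusted p = 0.0663). PSMB2, a structural subunit of the beta ring, was at 455, 464 and 413 CPM in the control and 518, 561 and 516 CPM in the knockout, all above the control (log2 fold change 0.26 ± 0.09, adjusted p = 0.0375).

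Of the immune subunits none passed without selenite, with log2 fold changes of 0.23 to 0.28 and adjusted p-values of 0.32 to 0.415. PSMB8 was at 51.3, 55.9 and 50.4 CPM in the control and 69.1, 63.1 and 53.0 CPM in the knockout. PSMB9 was at 41.3, 31.2 and 35.5 CPM against 40.5, 46.9 and 43.4 CPM, and PSMB10 at 36.0, 32.7 and 27.7 CPM against 35.9, 53.2 and 29.4 CPM. For all 3 the groups overlap.

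The alpha ring gave 2 of 7 higher and none lower. PSMA2 was at 257, 183 and 228 CPM in the control and 302, 289 and 298 CPM in the knockout (log2 fold change 0.41 ± 0.13, adjusted p = 0.0203), and the groups do not overlap, although the control libraries spread widely. PSMA5, with a log2 fold change of 0.29 ± 0.11, was the other (adjusted p = 0.0437). The remaining 5 ranged from -0.05 for PSMA6 to 0.27 for PSMA1.

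In the regulatory particle, the base scaffolds PSMD2 and PSMD1, which dock ubiquitin receptors and shuttle factors, were higher. PSMD2 stood at 279, 293 and 289 CPM in the control and at 358, 356 and 392 CPM in the knockout, with no overlap (log2 fold change 0.36 ± 0.09, adjusted p = 0.00387). PSMD1 was at 245, 266 and 262 CPM and at 335, 324 and 303 CPM, with no overlap (0.32 ± 0.12, adjusted p = 0.0491), but this call was lost in 12 of the 21 other settings. PSMD12, a structural subunit of the lid, was at 257, 266 and 233 CPM and at 329, 313 and 339 CPM, again with no overlap (0.38 ± 0.12, adjusted p = 0.0146). Against these stood the ATPase PSMC4, at 397, 405 and 382 CPM in the control and 228, 262 and 237 CPM in the knockout. No knockout library reached the lowest control library, and PSMC4 fell by 0.70 ± 0.10 on the log2 scale (adjusted p = 7.62e-07), the smallest adjusted p of the 46 genes in this comparison. PSMD8, a lid subunit, was the other gene that fell, from 323, 311 and 304 CPM to 218, 209 and 208 CPM, with no overlap (-0.56 ± 0.10, adjusted p = 2.91e-05). PSMC4 and PSMD8 both lie on chromosome 19, at 39971165 to 39981764 and 38374571 to 38383824. The other 5 ATPase genes ranged from -0.09 to 0.16 and none passed.

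Of the regulators, PSME2 rose. It encodes a subunit of the interferon-inducible activator that opens the gate of the core, and was at 76.0, 75.5 and 73.8 CPM in the control and 83.7, 100.0 and 106 CPM in the knockout, with no overlap (log2 fold change 0.36 ± 0.13, adjusted p = 0.0422). Its partner PSME1, in the same activator ring, was at -0.25 ± 0.12 (adjusted p = 0.141). The inhibitor PSMF1 had a log2 fold change of 0.33 ± 0.14 (adjusted p = 0.0786). The core assembly chaperones PSMG1 to PSMG4 ranged from 0.19 to 0.39, and none of the 4 passed. PSMB5, PSMB6, PSMD2, PSMC4 and PSMD8 kept their calls in all 21 other settings, while PSMA2, PSMA5, PSMB2, PSMD1, PSMD12 and PSME2 lost theirs in 5, 8, 8, 12, 2 and 10 of them. The number of members called was 5 to 7 when any one of these 5 libraries was left out: control replicates 2 and 3 (6 and 5 called) and knockout replicates 1, 2 and 3 (7, 6 and 5 called), all without selenite, where 17.5% to 20.1% of all genes were called.

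**Figure D2:**
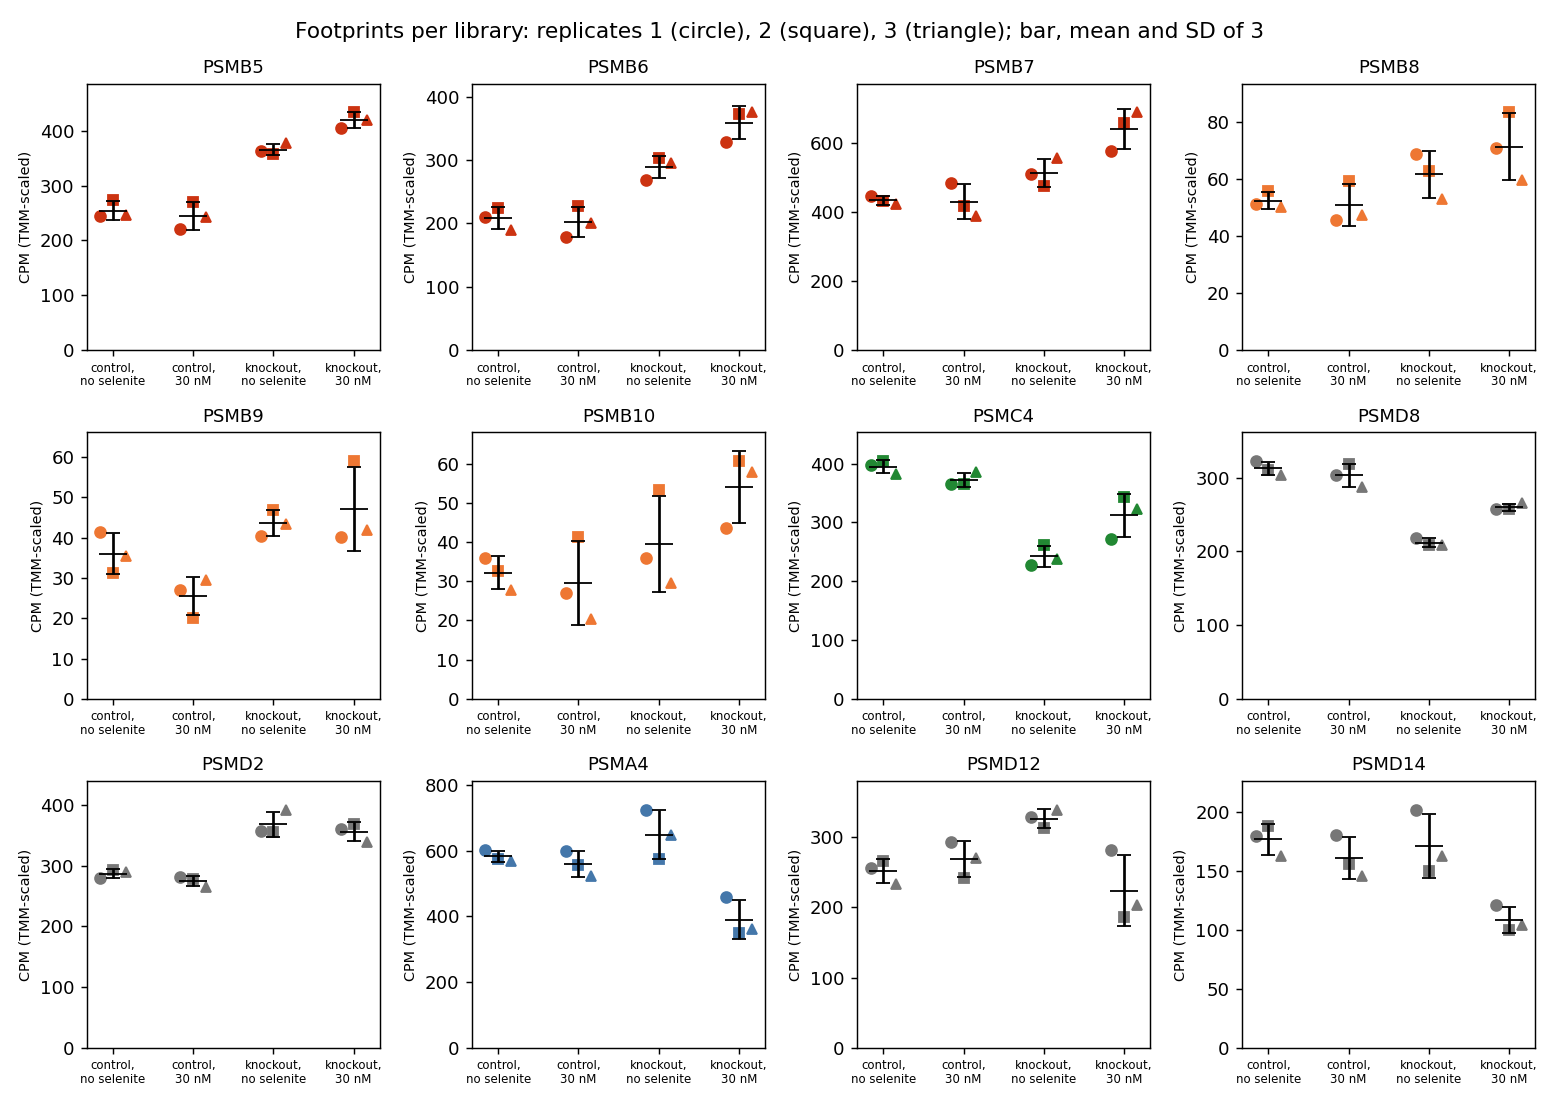
Footprints in CPM (vertical axis, from 0) of 12 proteasome genes in each of the 12 libraries, with replicates as circle, square and triangle and the mean and SD of 3 libraries in black. PSMB5 and PSMB6 are higher in both knockout groups than in both control groups, PSMC4 and PSMD8 lower in both, and PSMA4 and PSMD14 are lowest in the 3 libraries of the knockout with selenite.

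The second comparison sets knockout against control with 30 nM selenite in both. Here the beta ring rose nearly as a whole: 9 of 10 beta-ring genes were higher and none lower, while of the alpha ring none was higher and 2 of 7 were lower. Over the 46 genes 14 were higher and 8 lower, or 47.8% of members beside 42.9% of all genes tested. The higher calls were 30.4% beside 21.3%, and the lower calls 17.4% beside 21.6%. The members' median log2 fold change was -0.02, that of all genes also -0.02, and the members' median was 0.10 without the 2 shallow libraries. By class the median was -0.13 in the alpha ring, 0.50 in the constitutive beta ring, 0.82 in the immune beta ring, 0.04 in the ATPases, -0.16 in the non-ATPases and -0.08 in the regulators. Without the 2 shallow libraries 8 genes were higher and 2 lower (25.2% of all genes called), with 5 of the 10 beta-ring genes higher, none of them immune, and none of the alpha ring called. The class medians were then 0.01 in the alpha ring, 0.44 in the constitutive and 0.61 in the immune beta ring, 0.09 in the ATPases, -0.05 in the non-ATPases and 0.08 in the regulators.

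All 3 constitutive catalytic subunits rose. PSMB5 was at 221, 271 and 243 CPM in the control with selenite and 405, 434 and 419 CPM in the knockout. PSMB6 was at 179, 227 and 200 CPM and at 329, 372 and 375 CPM, and PSMB7 at 486, 417 and 389 CPM and at 579, 659 and 691 CPM. For each, every knockout library was above every control library, the deep one included. The log2 fold changes were 0.78 ± 0.10 for PSMB5 (adjusted p = 1.08e-07), 0.82 ± 0.11 for PSMB6 (adjusted p = 2.14e-07) and 0.57 ± 0.10 for PSMB7 (adjusted p = 1.77e-05). Without the shallow libraries they were 0.75, 0.72 and 0.44 (adjusted p = 3.29e-05, 0.000146 and 0.00744).

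Of the 4 structural beta-ring genes 3 rose. PSMB2 went from 413, 445 and 423 CPM to 575, 657 and 575 CPM, with no overlap (log2 fold change 0.50 ± 0.09, adjusted p = 5.82e-05; 0.45 and adjusted p = 0.00381 without the shallow libraries). PSMB1 was at 0.33 ± 0.09 (adjusted p = 0.0047) and PSMB3 at 0.28 ± 0.10 (adjusted p = 0.018). PSMB1 lost its call without the shallow libraries (0.27, adjusted p = 0.0954), and PSMB3 kept it (0.38, adjusted p = 0.0172). PSMB4 was the one beta-ring gene that did not pass, at 0.18 ± 0.09 (adjusted p = 0.103; 0.10 and adjusted p = 0.538 without them). PSMB2, PSMB5, PSMB6, PSMB7 and PSMD2 kept this call in all 21 other settings.

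The immune subunits rose as well, from fewer footprints. PSMB8 was at 45.8, 59.4 and 47.6 CPM in the control with selenite and 71.1, 83.6 and 59.9 CPM in the knockout. PSMB9 was at 27.0, 20.2 and 29.5 CPM and at 40.2, 59.0 and 41.9 CPM, and PSMB10 at 27.0, 41.4 and 20.4 CPM and at 43.5, 60.7 and 57.9 CPM. No group overlaps its partner, though the highest control and lowest knockout library of PSMB8 and of PSMB10 lie close. The log2 fold changes were 0.51 ± 0.17 for PSMB8 (adjusted p = 0.0172), 0.82 ± 0.22 for PSMB9 (adjusted p = 0.00238) and 0.85 ± 0.24 for PSMB10 (adjusted p = 0.00522). All 3 calls were lost without the shallow libraries, where the values were 0.51, 0.65 and 0.61 (adjusted p = 0.0708, 0.0603 and 0.149).

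Relative to the subunit each replaces, the immune counts did not shift between the genotypes in 1 direction. PSMB8 counts were 19.6% to 22.0% of PSMB5 counts in control and 14.3% to 19.3% in knockout cells with selenite, and the groups do not overlap. PSMB9 counts were 8.88% to 15.1% and 11.2% to 15.9% of PSMB6 counts, and PSMB10 counts 5.24% to 9.92% and 7.51% to 9.20% of PSMB7 counts, and both pairs of groups overlap. These shares depend on gene length in their level but not between libraries.

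Of the 7 alpha-ring genes 2 were lower, or 28.6% beside 21.6% of all genes tested, and the other 5 did not pass. Of the 7, 3 lay above 0 and 4 below. PSMA4, an alpha-ring gene, was at 600, 557 and 523 CPM in the control with selenite and 458, 351 and 361 CPM in the knockout, with no overlap. PSMA6 was at 188, 149 and 176 CPM and at 128, 133 and 106 CPM, also with no overlap. They fell by 0.51 ± 0.11 (adjusted p = 0.00018) and by 0.47 ± 0.13 (adjusted p = 0.00301) on the log2 scale. Without the shallow libraries neither passed, at -0.27 and -0.40 (adjusted p = 0.118 and 0.0617). The other 5 alpha-ring genes ranged from -0.29 for PSMA3 to 0.24 for PSMA5.

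Summed counts weigh genes with many footprints most, PSMB4 in the beta ring and PSMA4 in the alpha ring. The ratio of summed constitutive beta-ring to summed alpha-ring counts was taken in each library. It was 2.19, 2.68 and 2.72 in the knockout with selenite, and 1.56 to 1.83 with a median of 1.77 in the other 9 libraries. Its level reflects the lengths of the genes as well, and only its differences between libraries are read here. The deep library of the group had the lowest of the 3 values and still lay above the other 9. Alpha-ring genes together were at 1888 to 2131 CPM in control and 1679 to 1939 CPM in knockout cells with selenite, which overlap, and constitutive beta-ring genes at 3338 to 3454 and 4255 to 4654 CPM, which do not.

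**Figure D3:**
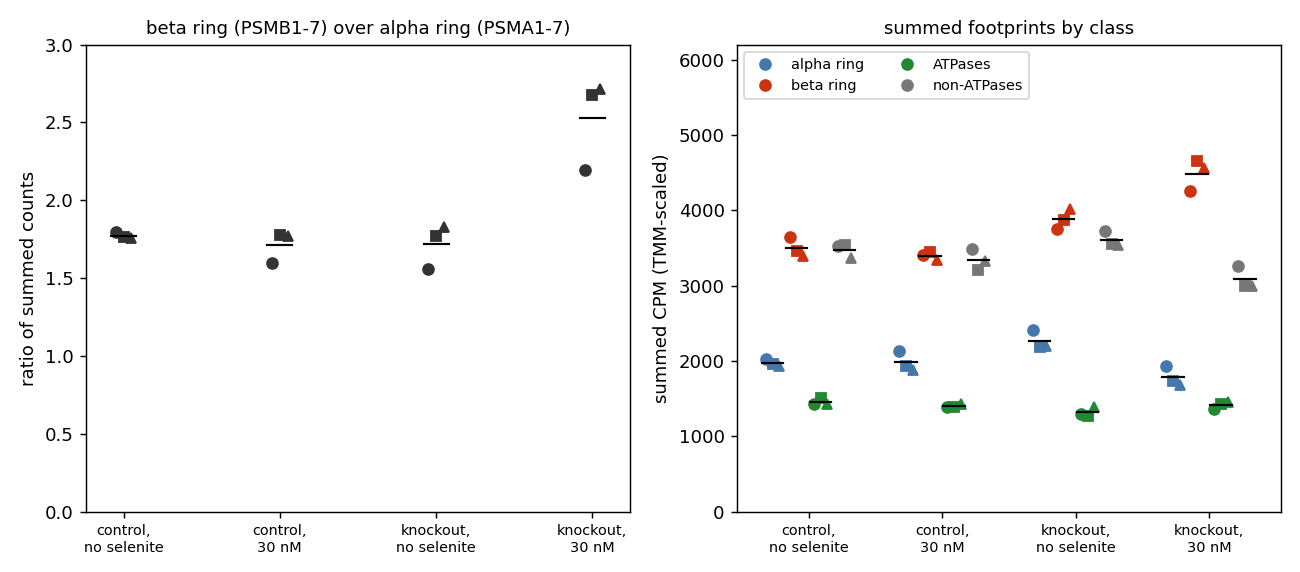
Left, ratio of summed PSMB1 to PSMB7 counts to summed PSMA1 to PSMA7 counts in each library; right, summed CPM of the alpha ring, constitutive beta ring, ATPases and non-ATPases in each library, with black bars for the mean of 3 and replicates as circle, square and triangle. The ratio is 1.56 to 1.83 in 9 libraries and 2.19 to 2.72 in the knockout with selenite; heights of different classes are not comparable, since gene lengths and numbers of genes differ.

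In the base of the regulatory particle, PSMD2 rose again, from 281, 278 and 266 CPM to 361, 369 and 339 CPM with no overlap (log2 fold change 0.38 ± 0.10, adjusted p = 0.00202; 0.41 and adjusted p = 0.0118 without the shallow libraries). The ATPase PSMC3 was at 297, 322 and 295 CPM in the control and 346, 367 and 435 CPM in the knockout, with no overlap (0.32 ± 0.10, adjusted p = 0.0125), and lost its call without the shallow libraries (0.20, adjusted p = 0.255). PSMC4 was again lower, at 366, 365 and 387 CPM against 272, 343 and 323 CPM. Its groups do not overlap, but the fall of 0.27 ± 0.10 (adjusted p = 0.0346) stands beside 0.70 without selenite, and without the shallow libraries it fell by 0.44 (adjusted p = 0.0109). The call was lost in 4 of the 21 other settings, with a log2 fold change as small as -0.19 (adjusted p up to 0.167). The difference between the falls without and with selenite, tested as an interaction, was 0.44 ± 0.14 and did not pass (adjusted p = 0.0527; 0.26 and adjusted p = 0.479 without the shallow libraries). The ubiquitin receptor PSMD4 fell by 0.36 ± 0.10 (adjusted p = 0.00404), a call lost without the shallow libraries (-0.23, adjusted p = 0.16).

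In the lid, PSMD14, the deubiquitinase that removes ubiquitin chains from substrates, was at 181, 156 and 146 CPM in the control with selenite and 121, 100.0 and 104 CPM in the knockout. The groups do not overlap, and it fell by 0.55 ± 0.14 (adjusted p = 0.00146), or by 0.39 without the shallow libraries (adjusted p = 0.0939). PSMD6 fell by 0.36 ± 0.11 (adjusted p = 0.00519), and by 0.30 without them (adjusted p = 0.0828), while PSMD3 rose by 0.39 ± 0.11 (adjusted p = 0.00328; 0.40 and adjusted p = 0.0247 without them). PSMD8 stood at 304, 318 and 288 CPM and at 257, 257 and 266 CPM, apart but not past the threshold (-0.22 ± 0.10, adjusted p = 0.074; -0.22 and adjusted p = 0.23 without them). PSMD12 was at 294, 242 and 271 CPM and at 282, 187 and 204 CPM, which overlap (-0.24 ± 0.12, adjusted p = 0.117; 0.08 and adjusted p = 0.691 without them).

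Chaperones that build the base split. PSMD9 rose from 40.0, 48.8 and 44.6 CPM to 64.5, 77.0 and 55.9 CPM, with no overlap (log2 fold change 0.57 ± 0.18, adjusted p = 0.00806; 0.56 and adjusted p = 0.0459 without the shallow libraries). PSMD10 fell by 0.53 ± 0.21 (adjusted p = 0.0404; -0.74 and adjusted p = 0.035 without them), with groups that overlap, and lost its call in 8 of the 21 other settings, DESeq2 and limma among them (adjusted p up to 0.258). PSMD5 was at -0.24 ± 0.15 (adjusted p = 0.199; -0.24 and adjusted p = 0.365 without them). Of the core assembly chaperones, PSMG4 was at 11.4, 9.55 and 8.31 CPM in the control and at 15.8, 14.8 and 31.9 CPM in the knockout. The groups do not overlap, but replicate 3 of the knockout, the shallowest library, was far above its partners, and the log2 fold change of 0.98 ± 0.34 (adjusted p = 0.0183) did not pass without the shallow libraries (0.71, adjusted p = 0.2). The activator PSME4 fell by 0.36 ± 0.14 (adjusted p = 0.0335), but had -0.04 without them (adjusted p = 0.876). PSME2, higher without selenite, was at 72.7, 80.7 and 84.6 CPM and at 81.6, 73.8 and 75.9 CPM here, groups that overlap (-0.03 ± 0.15, adjusted p = 0.956; 0.06 and adjusted p = 0.842 without the shallow libraries).

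The knockout comparisons with and without selenite share no libraries. Both called PSMB2, PSMB5, PSMB6 and PSMD2 higher and PSMC4 lower, and no member was called higher in one and lower in the other. The share of all genes called in both was not computed here. Leaving out a single library gave 17 to 23 members called in the comparison with selenite, where 34.2% to 41.8% of all genes were called.

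The next comparisons set 30 nM selenite against none, in control and in knockout cells. In control cells 0 of 46 members passed in edgeR, where 2 of the 10467 genes did (0.0191%). At an unadjusted p under 0.05 there was 1 member (2.17%, beside 2.71% of all genes), and DESeq2 also called 0 members. The members' log2 fold changes ran from -0.52 for PSMG4 to 0.16 for PSMA2. PSMB9, at -0.48 ± 0.21, went from 41.3, 31.2 and 35.5 CPM without to 27.0, 20.2 and 29.5 CPM with selenite, groups that do not overlap but with an adjusted p of 1.

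In knockout cells 6 members were higher and 13 lower with selenite, 41.3% beside 20.5% of all genes tested. Higher calls were 13% beside 10.2%, and lower calls 28.3% beside 10.3%. The higher genes were PSMB4, PSMB6, PSMB7, PSMC3, PSMC4 and PSMD8. The lower were PSMA2, PSMA3, PSMA4, PSMA6, PSMC6, PSMD1, PSMD4, PSMD6, PSMD11, PSMD12, PSMD14, PSMG1 and PSMG2, so all 7 beta-ring or alpha-ring calls followed the ring: 3 beta-ring genes up and 4 alpha-ring genes down. With the trend on gene density removed, as described below, PSMB7 and PSMA4 kept these calls. PSMB4, PSMB6, PSMA2, PSMA3 and PSMA6 lost theirs (adjusted p = 0.901, 0.797, 0.293, 0.163 and 0.0513). That setting newly called PSMB1 higher (log2 fold change 0.35, adjusted p = 0.00933). It also newly called PSMD13, PSME2 and PSME3 lower (adjusted p = 0.0429, 0.00436 and 0.00133). No member was called without the 2 shallow libraries, where 0.49% of all genes were. Single libraries also moved the count: it was 5 without knockout replicate 2 with selenite, 7 without replicate 3, 4 without knockout replicate 1 without selenite and 9 without replicate 3. The share of all genes called fell with it, to 9.75%, 11.5%, 7.46% and 13.7%. This comparison and the knockout comparison without selenite share the knockout libraries without selenite, so their values for a member are not independent.

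**Figure D4:**
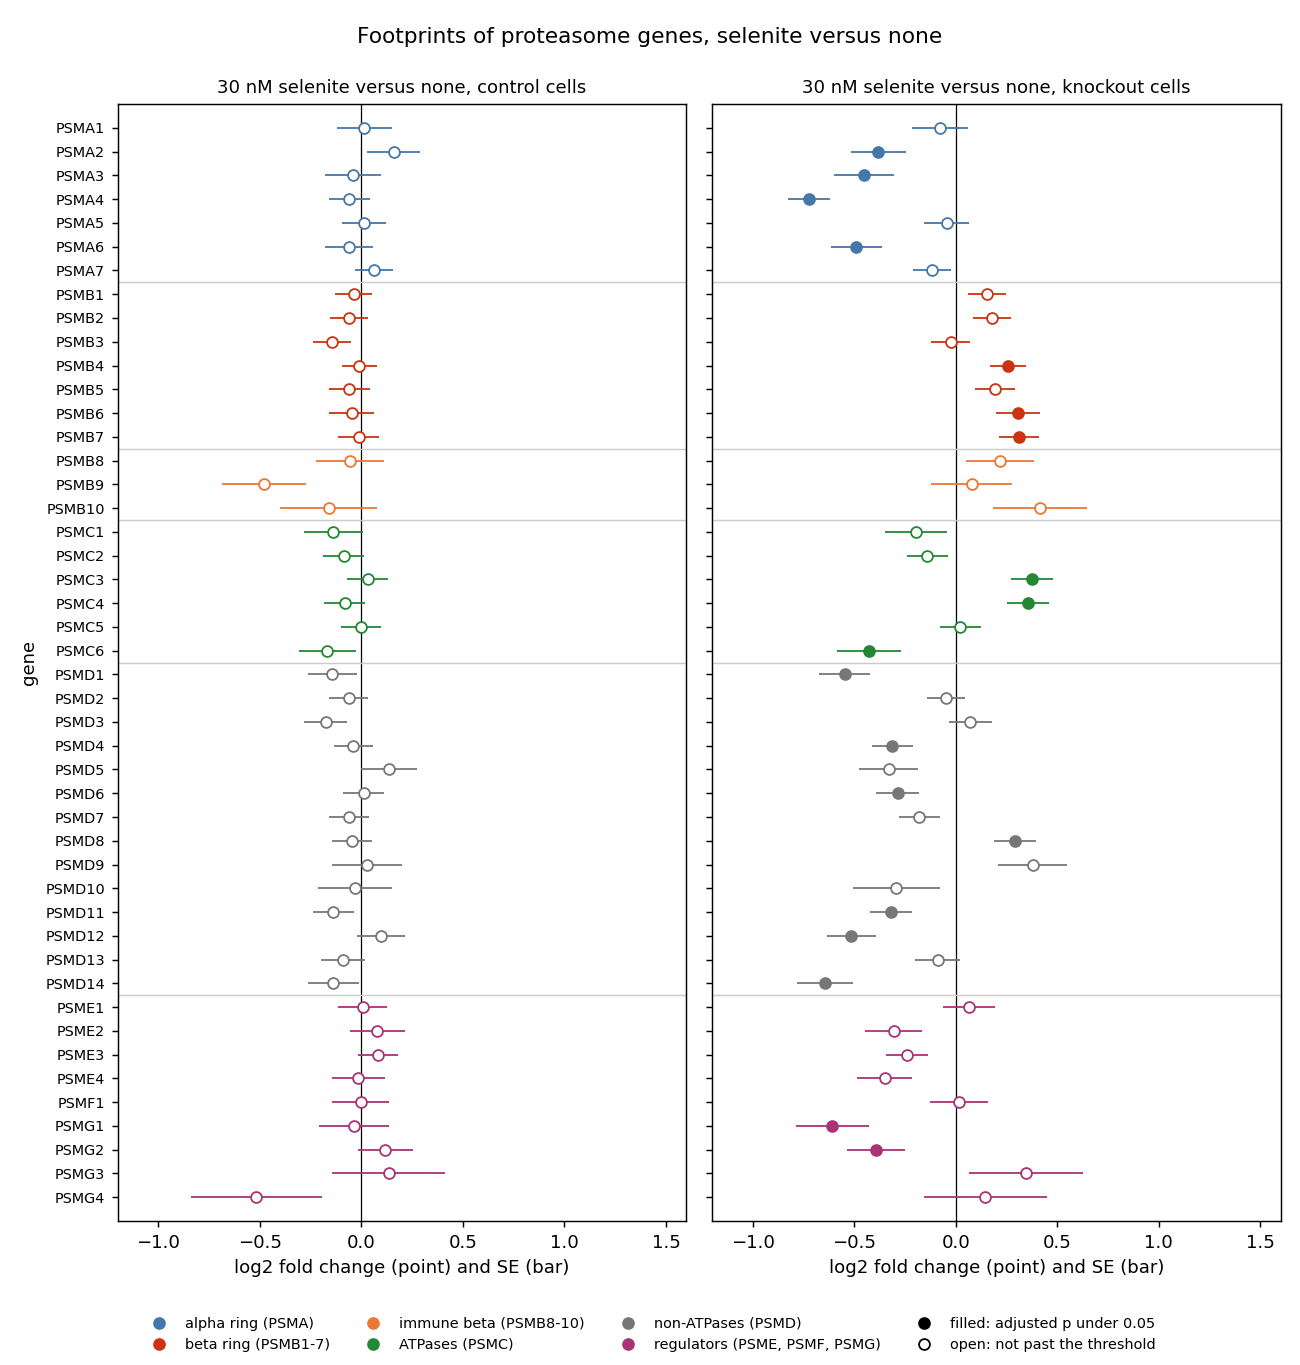
Log2 fold change (point) and standard error (bar) of footprints with 30 nM selenite over none for each of the 46 proteasome genes, in control cells on the left and knockout cells on the right; colour gives the class and filled points have an adjusted p under 0.05. No point is filled in control cells; in knockout cells 6 are filled above 0 and 13 below.

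The gene with the smallest adjusted p in knockout cells was PSMA4, at 725, 574 and 649 CPM without and 458, 351 and 361 CPM with selenite. Its groups do not overlap, and it fell by 0.72 ± 0.11 on the log2 scale (adjusted p = 2.2e-05). Without the shallow libraries its log2 fold change was -0.49. PSMD14 went from 202, 150 and 163 CPM to 121, 100.0 and 104 CPM, PSMD1 from 335, 324 and 303 CPM to 261, 197 and 188 CPM, and PSMD12 from 329, 313 and 339 CPM to 282, 187 and 204 CPM. None of these 3 pairs of groups overlaps, and in each the deep library was the highest with selenite. They fell by 0.64 ± 0.14, 0.55 ± 0.12 and 0.51 ± 0.12 (adjusted p = 0.00122, 0.00246 and 0.00303), and by 0.49, 0.28 and 0.20 without the shallow libraries (adjusted p = 0.171, 0.371 and 0.505). PSMA6 was at 187, 170 and 162 CPM and at 128, 133 and 106 CPM, and PSMC3 at 274, 294 and 312 CPM and at 346, 367 and 435 CPM, with no overlap in either. PSMA6 fell by 0.49 ± 0.13 (adjusted p = 0.0065) and PSMC3 rose by 0.37 ± 0.10 (adjusted p = 0.00997), or -0.41 and 0.26 without the shallow libraries (adjusted p = 0.2 and 0.336).

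The fifth comparison tests whether selenite acted differently in knockout and control cells. Of the 46 genes none was higher and 2 were lower, 4.35% beside 7.45% of all genes tested, of which 3.76% were higher and 3.69% lower. PSMA4 was at 603, 577 and 570 CPM in control cells without and 600, 557 and 523 CPM with selenite, groups that overlap, against the fall in the knockout given above. The difference of the responses was -0.66 ± 0.15 (adjusted p = 0.00701; -0.43 and adjusted p = 0.245 without the shallow libraries). PSMA4 kept this call in 19 of the 21 other settings. For PSMD12, which rose in the knockout without selenite and not with it, the difference was -0.61 ± 0.17 (adjusted p = 0.0238; -0.30 and adjusted p = 0.454 without them), a call lost in 10 of the 21 other settings. No beta-ring gene passed, although all 10 had differences above 0 (0.12 to 0.57). All 7 alpha-ring genes had differences below 0 (-0.66 to -0.06). Without the shallow libraries the 10 beta-ring differences were still above 0, but only 5 of the 7 alpha-ring differences were below 0. With the trend on gene density removed, as described below, PSMB3, PSMB4 and PSMB8 lay below 0 (-0.07, -0.04 and -0.08). PSMA1 then lay above 0 (0.11). The number of members called was 0 without knockout replicate 1 without selenite (1.14% of all genes), 9 without knockout replicate 1 with selenite (15.9%), and 1 without any one of control replicate 1 and knockout replicate 3 without selenite, control replicates 1 and 3 with selenite, and knockout replicates 2 and 3 with selenite (1.91% to 4.54%).

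Gene density differed between the rings. The number of protein-coding genes within 1 Mb had a median of 14 around the alpha-ring genes, 40 around the constitutive and 70 around the immune beta-ring genes, 28.5 around the ATPases, 19 around the non-ATPases and 28 around the regulators, beside 22 for all genes tested. Over all genes, the median log2 fold change of the knockout with selenite went from -0.30 in the fifth of genes with the fewest neighbours, through -0.27, -0.01 and 0.20, to 0.25 in the fifth with the most. Over the 46 members, the rank correlation of density with that fold change was 0.44, beside 0.30 over all genes, and 0.03 for the knockout without selenite. Without the shallow libraries the medians of the 5 bins were -0.25, -0.18, 0.02, 0.15 and 0.17, and the rank correlations 0.32 over the members and 0.22 over all genes. These are descriptions across genes of the same libraries. Called members that ran against the trend were PSMB1 and PSMB7, which rose with 10 and 17 neighbours, and PSMC4 and PSMD4, which fell with 58 and 63. For selenite in the knockout, the rank correlations of density with fold change were 0.55 over the members and 0.43 over all genes. For the interaction they were 0.56 and 0.40.

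With the density trend removed from every library, a setting added after the data were seen, 7 of 10 beta-ring genes were still higher in the knockout with selenite and 1 alpha-ring gene was higher and 2 lower, with 38.9% of all genes called. The constitutive beta-ring median was then 0.56 and the alpha-ring median -0.04. PSMB3 and PSMB8 lost their calls (0.10 and 0.25, adjusted p = 0.418 and 0.259), and so did PSMD9, PSMD10, PSME4 and also PSMC3, PSMD3 and PSMD6, the last 3 at 0.15, 0.16 and -0.07 (adjusted p = 0.227, 0.233 and 0.6). PSMC4 fell by 0.52 (adjusted p = 2.93e-05) and PSMD8 by 0.45 (adjusted p = 0.000414), beside -0.27 and -0.22 with the trend in place.

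**Figure D5:**
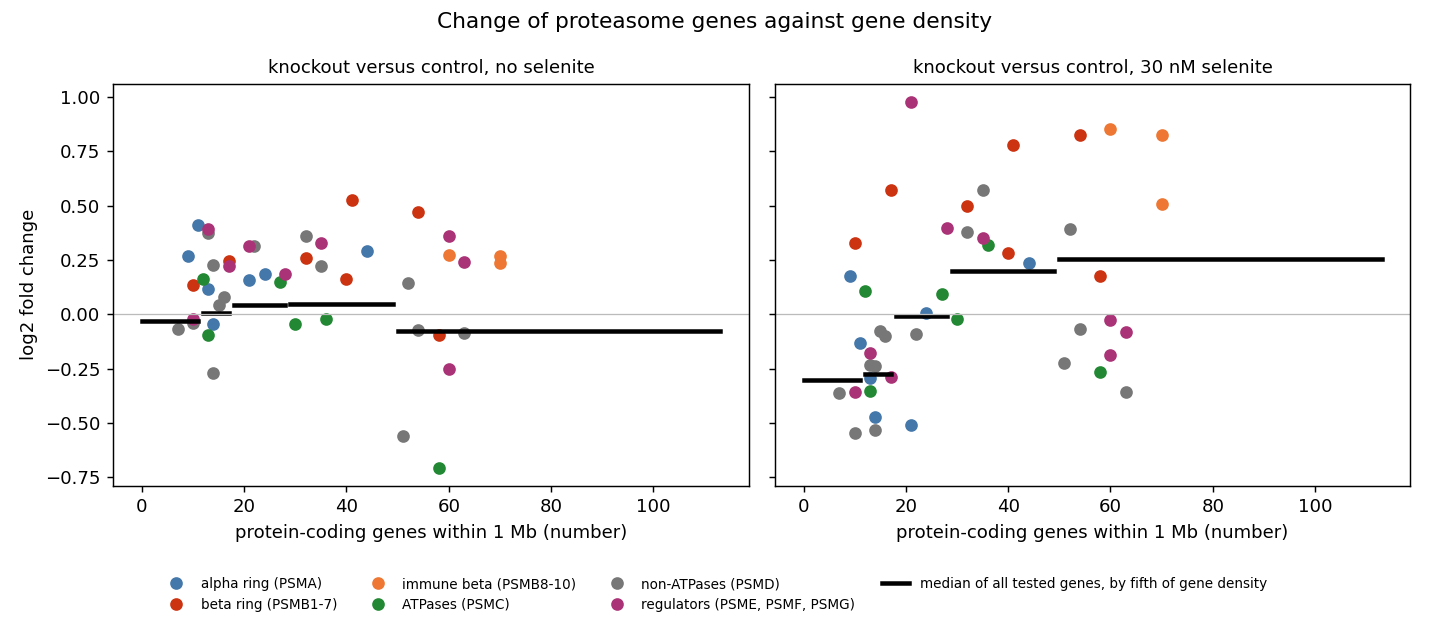
Log2 fold change of knockout over control (vertical axis) against the number of protein-coding genes within 1 Mb (horizontal axis) for the 46 proteasome genes, coloured by class, without selenite on the left and with 30 nM selenite on the right; black lines are medians of all tested genes in 5 bins of gene density. With selenite the black lines step from -0.30 to 0.25 and most beta-ring genes lie to the right of most alpha-ring genes.

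Genes that build, dock on or control the particle were described from lists chosen with results of these data known. Of 12 assembly and particle-associated genes, 2 were higher and 1 lower in the knockout without selenite, and 1 higher and 6 lower with selenite, with a median log2 fold change of -0.41. All genes gave 11.8% higher and 12% lower without selenite, and 21.3% and 21.6% with it. Without the shallow libraries 1 was higher and 5 were lower with selenite, with a median of -0.26, beside 13.4% and 11.8% of all genes. POMP, the chaperone that guides beta subunits into the core, was at 547, 542 and 521 CPM in the control with selenite and 315, 241 and 294 CPM in the knockout. The groups are far apart, and it fell by 0.91 ± 0.10 (adjusted p = 4.89e-09; -0.75 without the shallow libraries, adjusted p = 3.2e-05). So the footprints of this chaperone fell where those of the beta subunits rose.

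The ubiquitin receptor ADRM1 was the one gene of this list that rose with selenite, from 120, 159 and 181 CPM to 250.2, 285 and 313 CPM (log2 fold change 0.87 ± 0.13, adjusted p = 1.9e-06; 0.73 and adjusted p = 0.0014 without the shallow libraries). SEM1, the smallest lid subunit, fell by 0.99 ± 0.16 (adjusted p = 5.73e-06; -0.92 and adjusted p = 0.00116 without them). UBR1, a ubiquitin ligase, fell by 1.03 ± 0.16 (adjusted p = 1.98e-06; -0.76 and adjusted p = 0.0012 without them). The difference of the selenite responses was lower in 5 of the 12, beside 3.69% of all genes, and in 0 of them without the shallow libraries. POMP was among the 5 (-0.79 ± 0.14, adjusted p = 0.00118; -0.63 and adjusted p = 0.0722 without them).

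Among 7 tested regulators of proteasome gene expression, 2 were higher in the knockout without selenite and 3 with it, and none lower. These 28.6% and 42.9% are near the 23.9% and 42.9% of all genes called in either direction. Of 8 tested without the shallow libraries, 1 was higher with selenite. NFE2L1 was at 156, 135 and 147 CPM in control and 185, 221 and 218 CPM in knockout cells without selenite, and at 135, 131 and 122 CPM and 217, 234 and 206 CPM with it. Neither pair of groups overlaps, and the log2 fold changes were 0.51 ± 0.11 (adjusted p = 0.000921) and 0.76 ± 0.12 (adjusted p = 3.49e-06; 0.77 and adjusted p = 0.000161 without the shallow libraries). DDI2, the protease that activates NFE2L1, had a mean of 44.0 ± 4.15 CPM (SD, n = 3) in control and 72.7 ± 5.27 CPM in knockout cells without selenite, and stood at 43.3, 31.8 and 49.1 CPM against 61.2, 52.5 and 61.9 CPM with it. It too was higher in every knockout library of both pairs (0.72 ± 0.16, adjusted p = 0.000925, and 0.49 ± 0.18, adjusted p = 0.0308), though the second call was lost without the shallow libraries (0.56, adjusted p = 0.0617). MAFG, a small MAF protein that partners such factors, rose with selenite by 0.84 ± 0.32 (adjusted p = 0.0309; 0.47 and adjusted p = 0.407 without the shallow libraries).

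Of 14 ubiquitin supply and shuttling genes, none was higher and 1 lower in the knockout without selenite, and 5 were higher and 2 lower with it. That is 7.14% beside 23.9% of all genes, and 50% beside 42.9%. With the shallow libraries left out, 3 were higher and none lower with selenite. Of those that rose with selenite, UBQLN2, a shuttle factor that carries ubiquitinated proteins to the proteasome, was at 0.61 ± 0.13 (adjusted p = 0.000221; 0.48 and adjusted p = 0.0206 without the shallow libraries) and UBA1, the main ubiquitin-activating enzyme, at 0.39 ± 0.09 (adjusted p = 0.000714; 0.39 and adjusted p = 0.0119).

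Of 11 partners of the immune subunits in antigen presentation, 1 was higher in the knockout without selenite and 5 were higher and 1 lower with it. That is 9.09% beside 23.9% of all genes, and 54.5% beside 42.9%. Leaving out the shallow libraries gave 5 higher and none lower with selenite, beside 25.2% of all genes. TAP2 and TAP1, the peptide transporter, lie beside PSMB8 and PSMB9 in the order TAP2, PSMB8, TAP1, PSMB9 on chromosome 6, and all 4 were called higher with selenite. TAP1 was at 34.3, 37.2 and 34.0 CPM in the control and 68.5, 77.0 and 71.9 CPM in the knockout, and TAP2 at 71.9, 78.5 and 65.7 CPM and at 132, 159 and 148 CPM. Neither overlaps, and the log2 fold changes were 1.03 ± 0.19 (adjusted p = 4.44e-05) and 1.01 ± 0.14 (adjusted p = 2.88e-07), or 0.98 and 0.90 without the shallow libraries (adjusted p = 0.00213 and 0.000151). HLA-B, a peptide-presenting heavy chain, also rose by 1.22 ± 0.19 (adjusted p = 2.31e-06; 1.03 and adjusted p = 0.000991 without them). HLA genes are near-identical in sequence, and how reads shared among them were counted is not given in the sources used here.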

How the data were processed

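Per the file headers, the deposited table of whole-number footprint counts holds 1 column per library for 12 libraries, and the authors' second table holds the same counts divided by 1 factor per library, a normalized signal whose factor is not explained. The submitters' processing notes name Trim Galore 0.6.10, STAR 2.7.9a, DESeq2 and the build GRCh38; the counting tool, the annotation and the use of molecular identifiers are not given in the sources used here, and uncollapsed duplicates or reads shared by related genes could shift counts. Totals of 520989 to 1543627 counts limit precision most for genes with few footprints.

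The raw counts were filtered (edgeR filterByExpr, minimum count 10 and minimum total 15) and fitted with edgeR 4.0.16 in R 4.3.3: TMM scaling, the quasi-likelihood test, all 12 libraries in 1 model with a coefficient per group, and 5 comparisons, each adjusted by Benjamini-Hochberg over 10467 genes. Standard errors are the log2 fold change over the root of the F statistic. CPM use TMM-scaled totals. Alternatives were DESeq2 1.42.0, limma 3.58.1 on log2(normalized signal + 1), RLE factors, other filters, thinning, a replicate block and left-out libraries. The density setting fits, in each library, a loess curve of log2 CPM deviations on log2(number of protein-coding genes within 1 Mb + 1). The curve enters the model of the raw counts as an offset.

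Same-numbered libraries of different groups correlated in their deviations at -0.03 to 0.28, with a median of 0.08 and over 0.1 in 7 of 18 pairs. Differently numbered ones had a median of -0.05 and were over 0.1 in 2 of 36 pairs. The main fit does not take the numbers to pair samples, and results with the numbers as a block are given below. Of the symbols, 12978 matched RefSeq by symbol and 65 by synonym, and 31 did not match. The members and lists were chosen with earlier results of these data known. Values in every library are given for the catalytic subunits, for members called in both knockout comparisons, for the largest call per class in each, and for up to 6 called members per selenite comparison and for the interaction by smallest p; up to 4 genes are named per accompanying list. Some genes of these lists enter the counts only and are not reported here by name.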

Additional observations from a re-analysis of the deposited data

Results flagged for a closer look

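PSMA4 and PSMD12 are given here because their response to selenite differed between knockout and control cells in a direct test of that difference. For PSMA4, the selenite response in the knockout minus that in the control was -0.66 on the log2 scale (SE 0.15, edgeR adjusted p = 0.00701), and -0.43 without the 2 shallow libraries (adjusted p = 0.245); it was lost in 2 of 21 other settings. For PSMD12 it was -0.61 (SE 0.17, edgeR adjusted p = 0.0238), and -0.30 without them (adjusted p = 0.454); it was lost in 10 of 21 other settings, 8 of them single left-out libraries and 1 the removed density trend (adjusted p = 0.0827). Groups of 3 libraries were too small for a screen for single outlying libraries.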

How the results depend on the processing

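Without both shallow libraries of the knockout with selenite, the members called went from 22 to 10 in the knockout comparison with selenite, from 19 to 0 for selenite in the knockout and from 2 to 0 for the interaction, and from 11 to 15 in the knockout comparison without selenite. All genes called were then 25.2%, 0.49%, 0.0907% and 25.5%. Leaving out a single library gave 5 to 13 members in the knockout comparison without selenite (11 with all), 17 to 23 with selenite, 4 to 19 for selenite in the knockout and 0 to 9 for the interaction. In the same order, 17.5% to 25.4%, 34.2% to 41.8%, 7.46% to 25.7% and 1.14% to 15.9% of all genes were called. Some of the libraries behind these ranges are named with the results.

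For selenite in the knockout, DESeq2 called 12 members, beside 17.7% of all genes. The fit without the density trend, added after the data were seen, called 10, beside 12% of all genes. PSMB4 turned to -0.023 in that fit (adjusted p = 0.901). For the interaction, the fit without the trend called 4 members and the replicate block 5, beside 3.62% and 12.1% of all genes. The 4 were PSMA4, PSMD4, PSME2 and PSME3, all lower (adjusted p = 0.00663, 0.0152, 0.0353 and 0.0136). Of these only PSMA4 was also called in the full fit. The replicate block gave 14, 25, 0 and 21 members in the other 4 comparisons, where 26.9%, 45.7%, 0.0478% and 24.9% of all genes were called, and the numbers were not taken to pair samples. RLE factors, the other low-count filters, thinning and limma on the normalized signal kept each count of members within 1.5 times that of the full fit. The cause of these shifts was not tested, except that settings with left-out libraries hold fewer samples. Levels per coding length were not run, since no lengths were used here.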
